A study of Mus musculus with 20 samples.

Results

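The genes described here carry arginine and its product ornithine through the mouse lung. They comprise the arginases Arg1 and Arg2, the citrulline-recycling enzymes Ass1 and Asl, the arginine carriers Slc7a1 and Slc7a2, the ornithine aminotransferase Oat, and the polyamine genes Odc1, Azin1 and Sat1. These 10 genes were chosen by symbol from the 24062 genes of the count tables, and 9 of the 10 had enough counts to be tested among the 15766 genes that passed the filter on low counts. RNA-seq of ribosome-depleted total RNA was done on whole snap-frozen lungs of C57/129 mice of either genotype, Arg2-/- (Arg2 knockout) or Wildtype. The mice were 8 to 10 weeks old, and the labels name both sexes without saying which lung came from which. The 4 groups were knockouts kept for 28 days at 10% oxygen (hypoxia), knockouts kept for 28 days at 21% oxygen (room air), wild type mice at 10% oxygen and wild type mice at 21% oxygen, with 4 samples each. The genotype is given as Arg2-/- with no Cre or promoter named, and which exons it removes is not stated in the labels.

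Arginine is the shared substrate of the nitric oxide synthases and of the arginases, which split it into urea and ornithine. Arginase 1 is cytosolic and is best known from the liver's urea cycle and from alternatively activated macrophages, whereas arginase 2 is mitochondrial and is expressed in many tissues, the pulmonary endothelium among them. Ornithine is then either transaminated on the way to proline and glutamate or decarboxylated to putrescine, the first polyamine. The title of the series asks how loss of Arg2 bears on pulmonary hypertension caused by chronic hypoxia.

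Counts per sample summed to between 9.53e+06 and 6.33e+07 reads in genes, so that 3 counts, taken as the detection floor, correspond to 0.315 counts per 1000000 reads in genes (CPM) in the shallowest sample and 0.0474 CPM in the deepest. Reads in genes made up 25.4% to 64.2% of the reads that fell in a gene or in none, and 3 samples lay below 40%, namely knockout hypoxia sample 3, wild type hypoxia sample 1 and wild type room air sample 3. Transcripts from the Y chromosome exceeded Xist in 20 of 20 libraries. Some samples held RNA of other organs: pancreatic genes in knockout hypoxia samples 1 and 2, thymic genes in knockout room air samples 3 and 4, atrial Nppa in knockout room air sample 3, and skeletal muscle genes in wild type room air sample 1. Lower levels were seen elsewhere: pancreatic Cel, Cpa1 and Prss2 had 87, 32 and 28 counts in knockout hypoxia sample 3, and the liver gene Alb had 524 counts (12.4 CPM) in knockout hypoxia sample 4, against at most 2.49 CPM in any other sample. Calls of the enzyme and pathway genes are also given without the 5 samples named first where they were lost. That omission keeps knockout hypoxia samples 3 and 4, which were each left out singly instead. In room air it keeps knockout samples 1 and 2 and wild type samples 2 to 4. A call lost there thus rests on smaller groups, and fewer samples and RNA of other organs cannot be told apart as the reason. Nothing in the labels ties a sample to an animal, so the spread behind each p-value is that of these samples and may in part be technical.

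In lungs kept in hypoxia, knockouts differed from wild type in Arg2 itself, which fell, and in Azin1 and Oat, which rose. The 3 called genes out of 9 tested stand beside 23.0% of all genes called in that comparison (11.0% higher and 12.1% lower), a share of the same order. The 3 include Arg2, the gene that the genotype targets, whose fall is tied to the design. The groups did not overlap for the same 3 genes, beside 25.4% of all genes. In the other comparisons, 0 of 9 were called (beside 17.0% of all genes for hypoxia in knockouts, 4.98% for hypoxia in wild type and 0.0761% for the genotypes in room air), by edgeR's quasi-likelihood test with a Benjamini-Hochberg adjusted p under 0.05. At an unadjusted p under 0.05 there were 5 of 9 for the genotypes in hypoxia, beside 5820 of all 15766 genes. For hypoxia there were 1 of 9 in knockouts (beside 4693) and 2 of 9 in wild type (beside 2573). For the genotypes in room air there were 2 of 9 (beside 3408). DESeq2 and limma voom each called 0 for hypoxia in either genotype and 2 (Arg2 and Azin1) for the genotypes in room air. The share of all genes called by these tools is not given here. For 0 of 9 genes did hypoxia and room air samples of wild type not overlap, beside 8.23% of all genes, and for 0 of 9 did knockout and wild type samples in room air not overlap, beside 10.4%.

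**Figure D1:**
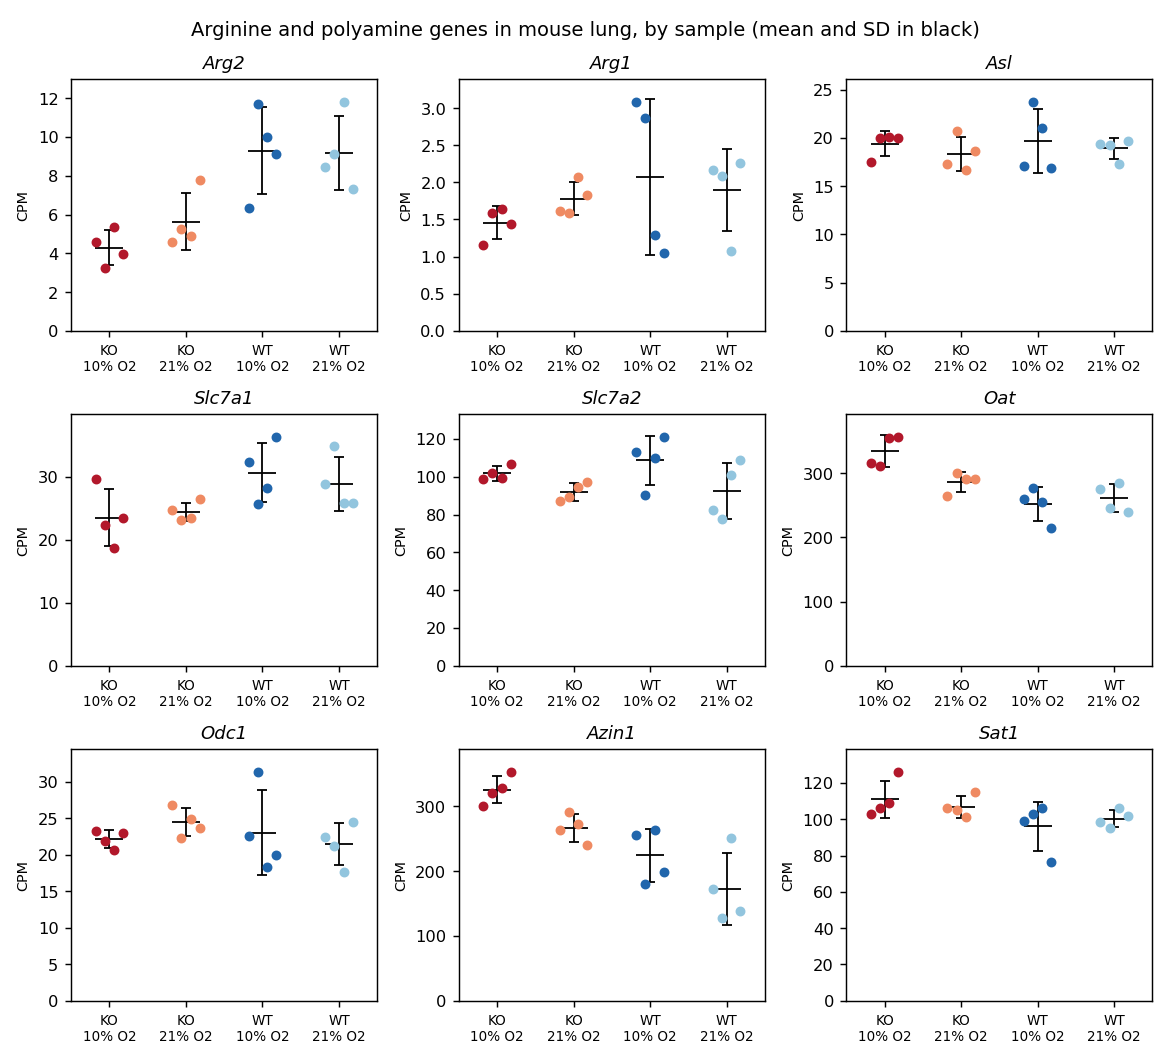
CPM (y axis, from 0) of the 9 tested genes in each of the 16 samples, with the groups along the x axis; coloured points are samples and black marks are the mean and SD of 4. The knockout hypoxia samples of Azin1 (301 to 353 CPM) and Oat (311 to 356 CPM) all lie above the wild type hypoxia samples, and those of Arg2 (3.22 to 5.37 CPM) all lie below them.

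Arg2 lies on chromosome 12 (GRCm38, chr12:79130777-79156301, plus strand) in 8 exons. In hypoxia it was at 4.57, 3.22, 5.37 and 3.97 CPM in knockout samples 1 to 4, against 6.33, 11.7, 10.0 and 9.13 CPM in wild type samples 1 to 4. In room air it was at 4.58, 5.26, 4.88 and 7.78 CPM in knockouts, against 8.47, 9.14, 11.8 and 7.30 CPM in wild type. The groups did not overlap in hypoxia, and in room air knockout sample 4 lay above wild type sample 4. Arg2 fell in knockout lungs in hypoxia by 1.13 ± 0.22 on the log2 scale (SE, adjusted p = 0.00191), and the difference in room air was -0.70 ± 0.21 (adjusted p = 0.0842, not called). Reads assigned to the gene therefore persisted in every knockout sample, at 46.0% of the wild type mean in hypoxia and 61.2% in room air. Between oxygen levels, Arg2 differed by -0.39 ± 0.22 in knockouts (adjusted p = 0.244) and by 0.04 ± 0.21 in wild type (adjusted p = 0.951).

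The last 285 of the 1428 exon bases of Arg2 (chr12:79156017-79156301) also belong to the gene Vti1b, a vesicle fusion protein encoded on the opposite strand. Vti1b was at 81.1 to 104 CPM in knockout hypoxia lungs and 64.4 to 81.1 CPM in wild type hypoxia lungs, and it rose by 0.27 ± 0.10 on the log2 scale (adjusted p = 0.045), the opposite direction to Arg2. That call was kept under 16 of 30 alternatives (0.20 to 0.37). It was lost without the 5 samples with organ markers (0.37, adjusted p = 0.0633), without the 3 samples below 40% of reads in genes (0.28, adjusted p = 0.107), with upper quartile scaling, with no filter on low counts and with the B library only where a sample had both an A and a B library; the single samples without which it was lost were knockout hypoxia samples 2, 3 and 4, knockout room air samples 2, 3 and 4, wild type hypoxia samples 1 and 4 and wild type room air sample 4. No source here states the strand setting of the counting, so how reads of the shared end were assigned cannot be told. Which part of the transcript the remaining reads cover cannot be read from counts per gene either.

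Arg1 was scarce, with 10 to 136 counts per sample. In hypoxia it was at 1.15, 1.59, 1.64 and 1.44 CPM in knockouts and at 3.08, 2.86, 1.29 and 1.05 CPM in wild type. In room air it was at 1.62, 1.59, 2.07 and 1.83 CPM in knockouts and at 2.16, 2.08, 1.08 and 2.26 CPM in wild type. The wild type samples spread widely in hypoxia, with samples 1 and 2 above every knockout sample and samples 3 and 4 among or below them. The coefficient of variation was 15% in knockout hypoxia lungs and 50.7% in wild type hypoxia lungs. No comparison called Arg1; the largest difference, knockout against wild type in hypoxia, was -0.51 ± 0.32 (adjusted p = 0.267). Loss of Arg2 was thus not accompanied by a detectable change in Arg1 at this depth, and the interval left by the SE is wide.

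Arg1 is often counted among the products of alternatively activated macrophages, so that list was set beside it. The 7 genes of the list summed to 1227 to 1553 CPM in knockout hypoxia lungs against 793 to 941 CPM in knockout room air lungs, and to 984 to 1239 CPM in wild type hypoxia lungs against 720 to 960 CPM in wild type room air lungs. Retnla, which encodes a secreted resistin-like protein, rose in hypoxia by 1.27 ± 0.26 in knockouts and by 1.04 ± 0.26 in wild type (adjusted p = 0.00323 and 0.0301). Chil3, a chitinase-like protein of the same cells, rose by 0.66 ± 0.11 and by 0.58 ± 0.11 (adjusted p = 0.000417 and 0.00375). Mrc1, the mannose receptor, rose by 0.42 ± 0.10 in knockouts (adjusted p = 0.00532) and differed by 0.27 ± 0.10 in wild type (adjusted p = 0.148). Ccl24, an eosinophil chemokine, fell by 1.63 ± 0.45 on the log2 scale in knockouts (adjusted p = 0.0164), at a low level (0.281 ± 0.155 CPM in hypoxia against 0.804 ± 0.251 CPM in room air, SD, n = 4 each), and differed by -1.49 ± 0.47 in wild type (adjusted p = 0.0753). The list thus held 3 higher and 1 lower gene of 7 in knockouts, with a median log2 fold change of 0.42, and 2 higher and 0 lower in wild type, with a median of -0.11. Over all genes, 7.93% were higher and 9.10% lower in knockouts, with a median of 0.00. In wild type, 2.67% were higher and 2.31% lower, with a median of -0.01. Chil3 made up most of each sum, averaging 981 CPM in knockout hypoxia lungs and 817 CPM in wild type hypoxia lungs. Arg1 differed by -0.31 ± 0.32 and by 0.07 ± 0.32 in knockouts and wild type (adjusted p = 0.577 and 0.951). In whole lung, a change in the number of cells of a type and a change in RNA per cell cannot be told apart.

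Per kilobase of exon, Arg2 exceeded Arg1 in every sample. The ratio of their levels per kilobase averaged 4.69 ± 1.28 in knockout hypoxia lungs, 4.96 ± 1.26 in knockout room air lungs, 8.82 ± 4.86 in wild type hypoxia lungs and 8.79 ± 5.63 in wild type room air lungs (SD, n = 4 each). The groups overlapped, from 3.16 to 6.63 over the knockout samples and from 3.20 to 17.2 over the wild type samples. The highest ratio, 17.2, came from wild type room air sample 3, the shallowest library, in which Arg1 had 10 counts.

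Of the citrulline-recycling pair, only Asl could be measured. Asl encodes argininosuccinate lyase, which releases arginine and fumarate. It was among the steadiest of the genes, at 17.5 to 20.1 CPM in knockout hypoxia lungs, 16.7 to 20.7 CPM in knockout room air lungs, 16.9 to 23.7 CPM in wild type hypoxia lungs and 17.3 to 19.7 CPM in wild type room air lungs. Its log2 fold changes lay between -0.05 and 0.08 in the 4 comparisons of groups, each within its SE of 0.11.

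Ass1 encodes argininosuccinate synthase, the step before Asl. The files list a total of 5 reads for it over the 16 samples, with 1 read each in knockout hypoxia sample 1, knockout room air sample 3, wild type hypoxia sample 4 and wild type room air samples 1 and 4. Every sample was thus under the floor of 3 counts, and no fold change is given. Ass1 (chr2:31470207-31520672) has a processed pseudogene, Gm5424, on chromosome 10 (chr10:62071123-62072362), which was at 0 in every sample. The copies were identical at 1230 of the 1236 coding bases of Ass1 (99.5%), without gaps. The coding bases 340 to 429 of Ass1, which hold 2 of the 6 mismatches, are shown with these in capitals because they show how little separates the copies in sequence (GENCODE vM21 transcripts, GRCm38).

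Ass1: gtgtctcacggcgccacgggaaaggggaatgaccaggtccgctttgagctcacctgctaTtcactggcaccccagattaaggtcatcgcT

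Gm5424: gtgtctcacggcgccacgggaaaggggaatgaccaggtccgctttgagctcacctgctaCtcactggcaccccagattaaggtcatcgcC

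Of all 50-base words of the longest Ass1 transcript, 55.3% also occur in Gm5424, and the rest occur in no other annotated gene. The files give alignments with several positions a line of their own, outside all genes, and there were between 2.34 and 12.4 such alignments per read counted in a gene. The haemoglobin genes Hba-a1, Hba-a2, Hbb-bs and Hbb-bt, which also come as near-identical pairs, were at 0 in 16, 16, 15 and 16 of the 16 samples, while the erythroid genes Alas2 and Slc4a1 were detected in all of them. Odc1, with 42.2% of its 50-base words in other genes, nevertheless had 12240 counts over the 16 samples. How far shared sequence set the level of Ass1 was not tested, and the level listed here says nothing firm about its abundance in these lungs.

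Among the other genes, 42.2% of the 50-base words of Odc1 occur in at least 1 other of 16 genes, with Gm7993 holding the highest share of any single gene (20.3%). The share was 21.2% for Arg2, 7.28% for Sat1, 6.43% for Azin1, 1.83% for Slc7a2 and 0.168% for Slc7a1. Words were searched on both strands, and Vti1b alone held 17.1% for Arg2. That part is the overlapping end of the 2 genes, the same place in the genome and not a copy elsewhere. It was 0 for Arg1, Asl and Oat. Odc1 thus shared more of its sequence than any other tested gene. Alignments with several positions per read in a gene differed between samples, from 2.34 in wild type hypoxia sample 2 to 12.4 in wild type room air sample 3. Their part in the fold changes was not tested.

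The arginine carriers Slc7a1 and Slc7a2 bring cationic amino acids across the plasma membrane. Slc7a1 was at 29.7, 22.3, 18.7 and 23.4 CPM in knockout hypoxia lungs and at 32.4, 25.7, 28.2 and 36.3 CPM in wild type hypoxia lungs. The groups overlapped through knockout sample 1, which lay above wild type samples 2 and 3. The difference was -0.38 ± 0.13 on the log2 scale with an adjusted p = 0.0502, just outside the threshold. It passed the threshold under 9 of 30 alternative settings, with values between -0.54 and -0.26 over all of them. Among the 9 were the omission of knockout hypoxia sample 1 (-0.51), of wild type hypoxia sample 2 (-0.45) and of wild type room air sample 2 or 3 (-0.38 each). In room air, Slc7a1 was at 23.1 to 26.4 CPM in knockouts and 25.8 to 34.9 CPM in wild type, a difference of -0.25 ± 0.13 (adjusted p = 0.299).

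Slc7a2 was at 98.6 to 107 CPM in knockout hypoxia lungs, 87.2 to 97.3 CPM in knockout room air lungs, 90.5 to 121 CPM in wild type hypoxia lungs and 77.6 to 109 CPM in wild type room air lungs. In knockouts the hypoxia samples all lay above the room air samples, but the difference was 0.15 ± 0.10 (adjusted p = 0.367). In wild type the groups overlapped, with a difference of 0.23 ± 0.10 (adjusted p = 0.254). Within the knockout, 3 of the 9 genes had hypoxia and room air samples that did not overlap (Slc7a2, Azin1 and Oat), beside 24.4% of all genes.

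Oat encodes the mitochondrial enzyme that transaminates ornithine, the arginase product, towards proline and glutamate (chr7:132557478-132576398, minus strand). It was at 315, 311, 355 and 356 CPM in knockout hypoxia lungs, against 259, 277, 255 and 215 CPM in wild type hypoxia lungs. In room air it was at 264, 300, 290 and 291 CPM in knockouts, against 275, 246, 284 and 240 CPM in wild type. Every knockout hypoxia sample lay above all samples of the other 3 groups, and those 3 groups overlapped one another. Oat rose in knockout lungs in hypoxia by 0.41 ± 0.09 (adjusted p = 0.00349), a 1.33-fold difference. In room air the difference was 0.13 ± 0.09 (adjusted p = 0.398).

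The call for Oat in hypoxia was kept under all 30 alternative settings, with values between 0.34 and 0.50, among them the removal of the GC trend (0.36) and the omission of the 5 samples with markers of other organs (0.50). Along the oxygen axis, Oat differed by 0.22 ± 0.09 in knockouts (adjusted p = 0.0834) and by -0.05 ± 0.09 in wild type (adjusted p = 0.83). The difference between these hypoxia effects was 0.28 ± 0.12 with an unadjusted p of 0.0348, and it did not pass correction over all genes (adjusted p = 0.312), so a genotype-dependent response to hypoxia is not shown for Oat. Across all 9 genes, edgeR, DESeq2 and limma voom each called 0 for this difference, beside 0.501% of all genes by edgeR. An unadjusted p under 0.05 was reached by 1 of 9, beside 2225 of all 15766 genes.

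The 250 bases upstream of the Oat start are shown because Oat was called higher in knockouts in hypoxia under all 30 alternatives and has an entry in the promoter table (RefSeq, GRCm38.p6, chr7:132576399-132576648, minus strand). They were searched on both strands for ACGTG and GCGTG, the core letters recognised by hypoxia-inducible factors, and for TGATGNAA, letters of the amino acid response element; capitals would mark a match. None was found in this window.

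Oat: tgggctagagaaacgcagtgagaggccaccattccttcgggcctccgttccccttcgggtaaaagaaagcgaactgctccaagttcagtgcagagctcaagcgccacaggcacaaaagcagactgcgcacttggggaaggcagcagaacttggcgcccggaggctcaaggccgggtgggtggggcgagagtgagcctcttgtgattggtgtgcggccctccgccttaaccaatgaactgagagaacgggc

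Over all 32851 promoters of the same length, ACGTG was found in 16.6%, GCGTG in 28.2% and TGATGNAA in 3.45%, where ACGTG on one strand and on the other can overlap in the letters CACGTG. Promoters of 5 of the 10 genes were in the table. Those of Ass1 and Odc1 held matches to GCGTG, 2 in Ass1 and 3 in Odc1, and that of Ass1 also held ACGTG on both strands at one place. Those of Slc7a1 and Sat1 held none. A match is only a run of letters and no binding was measured.

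Azin1 encodes antizyme inhibitor, which binds antizyme and so spares ornithine decarboxylase from degradation (chr15:38487427-38519266, minus strand). It was at 301, 321, 329 and 353 CPM in knockout hypoxia lungs, against 256, 180, 263 and 199 CPM in wild type hypoxia lungs. In room air it was at 263, 292, 273 and 240 CPM in knockouts, against 172, 128, 251 and 139 CPM in wild type. The groups did not overlap in hypoxia, and in room air only wild type sample 3, the shallowest library with the lowest share of reads in genes, reached into the knockout range. Azin1 rose in knockout lungs in hypoxia by 0.54 ± 0.17 (adjusted p = 0.0287). In room air the difference was 0.64 ± 0.17 (adjusted p = 0.0668, not called), where 0 of 9 genes were called beside 0.0761% of all genes.

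The results for Azin1 moved with the composition of the libraries. Its exons have a GC content of 39.3%, against a median of 49.7% over the genes tested, and at that GC content the trend of counts with GC averaged 0.17 in knockout hypoxia lungs, 0.13 in knockout room air lungs, -0.12 in wild type hypoxia lungs and -0.18 in wild type room air lungs on the log2 scale. With this trend removed, the difference between knockout and wild type was 0.26 in hypoxia (adjusted p = 0.0638) and 0.35 in room air (adjusted p = 0.07), and neither was called. With the replicate number added as a block to that correction, the difference in hypoxia was 0.27 and was called (adjusted p = 0.0416). The call in hypoxia was also lost without knockout hypoxia sample 2, 3 or 4 (0.54, 0.53 and 0.50), without wild type hypoxia sample 2 or 4 (0.44 and 0.49), and without the 5 samples with organ markers (0.60, adjusted p = 0.101). Without wild type room air sample 3, the room air difference was 0.87 and was called (adjusted p = 0.000689). Over all genes, 2198 were called in room air without that sample, beside 12 with every sample.

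Over the 16 samples, log2 CPM of Azin1 had a Pearson correlation of -0.50 with the share of reads in genes (permutation p = 0.0464, adjusted over 9 genes 0.209) and a Spearman correlation of -0.64 (permutation p = 0.00836, adjusted 0.0752). Without the 2 samples farthest from the median share, Pearson's r was -0.74. Odc1 went the other way, with r = 0.60 (permutation p = 0.0168, adjusted 0.151), rho = 0.48 (permutation p = 0.0626, adjusted 0.253) and r = 0.51 without the 2 farthest samples. None of the 9 relations passed correction. Oat had an r of -0.29 (permutation p = 0.273, adjusted 0.422).

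**Figure D2:**
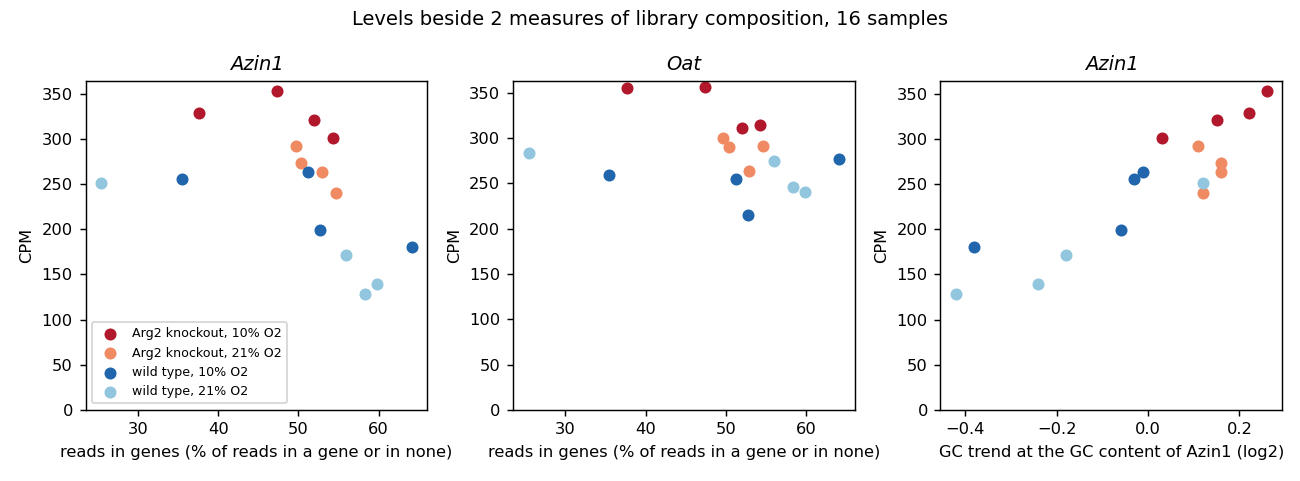
CPM (y axis, from 0) of Azin1 and Oat against the percentage of reads in genes, and of Azin1 against the GC trend of each sample at the GC content of Azin1 (log2); each point is 1 of 16 samples, coloured by group. Azin1 was lowest in the wild type samples with the lowest GC trend values, and the wild type room air sample at 25.4% of reads in genes had 251 CPM.

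Odc1 encodes ornithine decarboxylase, the first enzyme of polyamine synthesis and the protein that Azin1 protects. It was at 20.6 to 23.2 CPM in knockout hypoxia lungs, 22.3 to 26.8 CPM in knockout room air lungs, 18.3 to 31.3 CPM in wild type hypoxia lungs and 17.6 to 24.4 CPM in wild type room air lungs. All groups overlapped. Its differences were -0.06 ± 0.14 between genotypes in hypoxia, 0.18 ± 0.14 in room air, -0.14 ± 0.14 between oxygen levels in knockouts and 0.10 ± 0.14 in wild type, with adjusted p from 0.464 to 0.805.

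Sat1 encodes the acetyltransferase that marks spermidine and spermine for breakdown or export. It was at 103 to 126 CPM in knockout hypoxia lungs, 101 to 115 CPM in knockout room air lungs, 76.4 to 106 CPM in wild type hypoxia lungs and 95.0 to 106 CPM in wild type room air lungs. Its difference between genotypes in hypoxia was 0.21 ± 0.09 (adjusted p = 0.109). It was not called under any of the 30 alternative settings, with values from 0.05 to 0.30.

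**Figure D3:**
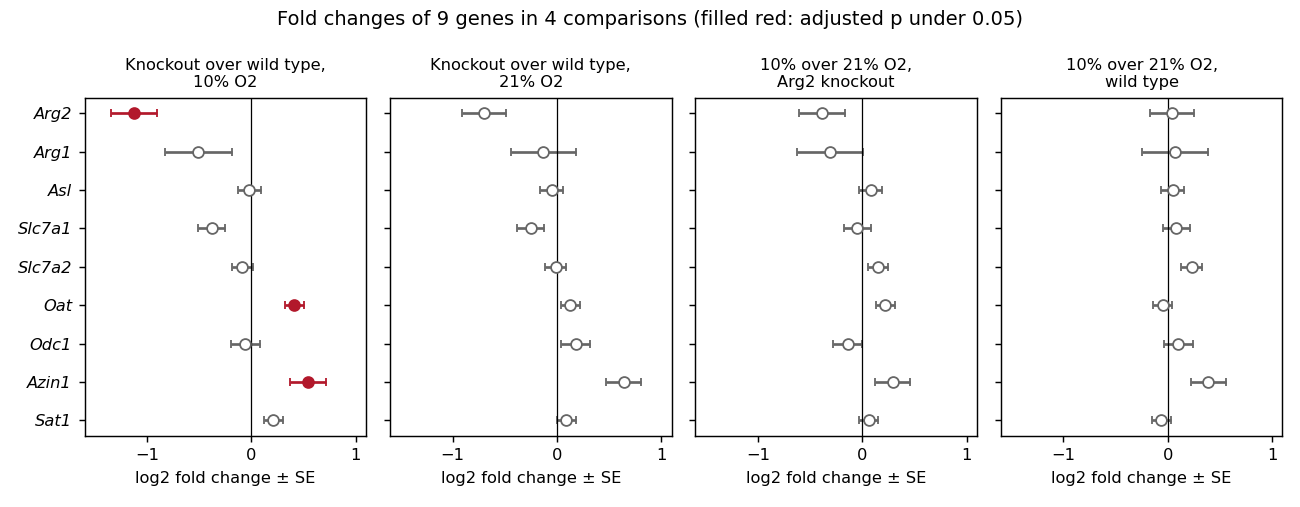
Log2 fold changes with SE (x axis) of the 9 genes (rows) for knockout over wild type at 10% and 21% oxygen, and for 10% over 21% oxygen in knockouts and in wild type; filled red points have an adjusted p under 0.05 by edgeR. Red points appear only in the first panel, for Arg2 (-1.13), Oat (0.41) and Azin1 (0.54).

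On the scale of CPM per kilobase of exon, the genes kept about the same order in all groups. Oat was highest, at 142 in knockout hypoxia, 121 in knockout room air, 107 in wild type hypoxia and 111 in wild type room air lungs, with SDs of 6.49 to 11 over 4 samples. Azin1 came next at 52.1, 42.6, 36.0 and 27.5 in the same groups, and Sat1 ranged over samples from 37.0 to 45.5 in knockout hypoxia, 36.5 to 41.4 in knockout room air, 27.5 to 38.0 in wild type hypoxia and 34.2 to 38.1 in wild type room air lungs. By the means, Azin1 stood above Sat1 except in wild type room air lungs, where it stood below (27.5 against 36.1), and the ranges of the pair overlapped in every group but knockout hypoxia. Slc7a2 followed at 10.1 to 11.9 over the group means, then Odc1 at 6.28 to 7.17, Asl at 3.79 to 4.07 and Slc7a1 at 2.04 to 2.66. Arg2 was level with Odc1 in wild type, at 6.51 in hypoxia and 6.43 in room air, and fell below Asl or close to it in knockouts, at 3.00 and 3.94. Arg1 was lowest throughout at 0.653 to 0.930. These levels assume that the whole annotated exon length was transcribed and counted.

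**Figure D4:**
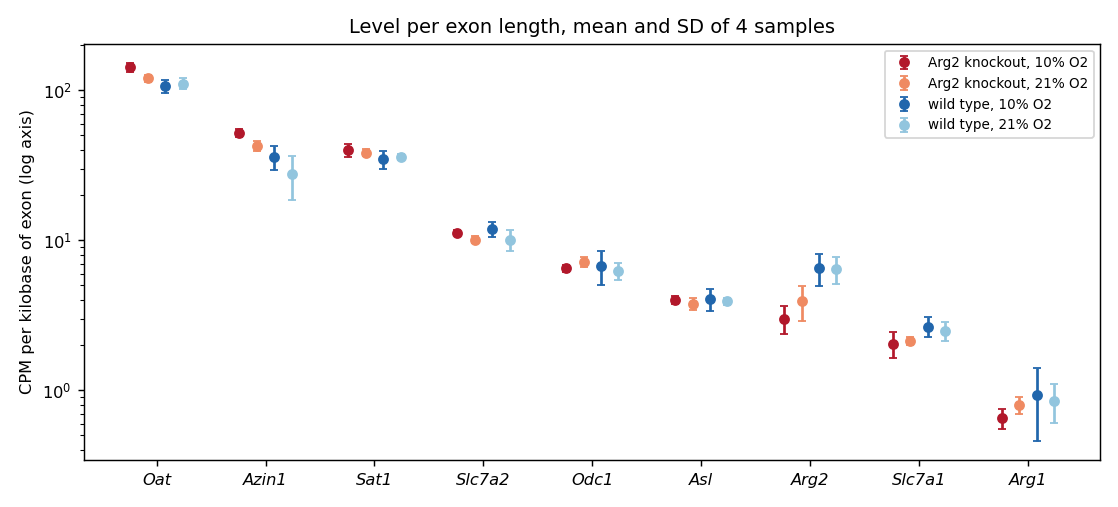
Mean and SD over 4 samples of CPM per kilobase of exon (log axis) for the 9 tested genes, with the 4 groups in colour. Oat is highest (107 to 142) and Arg1 lowest (0.653 to 0.930) in every group, and Arg2 changes its place, at 3.00 and 3.94 in knockouts against 6.51 and 6.43 in wild type.

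Genes whose levels ran most like those of the called genes over the 16 samples were, for Arg2, Zfp784 (Pearson r = 0.87), Stxbp2 (0.86) and Il1rl2 (0.86). For Azin1 they were Rab11a (0.98), Impad1 (0.97) and Cops2 (0.97), and for Oat they were Rabggtb (0.95), Uap1 (0.93) and Pdia6 (0.92). These values describe 11948 ranked genes in samples that share genotype, oxygen level and library composition.

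Beyond the 10 genes, 47 other genes of 5 lists were examined, covering urea cycle and proline links, amino acid transport, polyamine synthesis, polyamine breakdown and nitric oxide metabolism; 39 of them were tested. In knockout against wild type in hypoxia, 3 rose and 2 fell, 5 of 39 beside 23.0% of all genes, with a median log2 fold change of 0.01 against -0.01 over all genes. In knockout against wild type in room air, 0 of 39 were called, beside 0.0761% of all genes by edgeR. An unadjusted p under 0.05 was reached by 5 of 39, beside 3408 of all 15766 genes. DESeq2 and limma voom each called 1, Ddah1, and their share of all genes is not given here. Hypoxia raised 2 and lowered 2 in knockouts, beside 17.0% of all genes (7.93% higher and 9.10% lower), and likewise raised 2 and lowered 2 in wild type, beside 4.98% (2.67% higher and 2.31% lower). The test of the difference between the hypoxia effects called 0 of 39 by edgeR, DESeq2 and limma voom alike, beside 0.501% of all genes by edgeR. By edgeR, 4 of 39 had an unadjusted p under 0.05, beside 2225 of all 15766 genes. These were Slc38a9 (0.00372), Ddah1 (0.013), Pycrl (0.0194) and Slc3a2 (0.0275).

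The endothelial nitric oxide synthase gene Nos3 showed the clearest differences of these. It was at 69.2, 75.5, 71.1 and 65.3 CPM in knockout hypoxia lungs and at 23.6, 36.5, 29.9 and 28.2 CPM in knockout room air lungs. In wild type it was at 51.8, 55.9, 47.1 and 42.2 CPM in hypoxia and at 22.6, 27.4, 23.3 and 26.2 CPM in room air. Hypoxia samples lay above room air samples in each genotype without overlap, and knockout hypoxia samples lay above wild type hypoxia samples. Nos3 rose in hypoxia by 1.26 ± 0.12 in knockouts (adjusted p = 7.42e-07) and by 0.98 ± 0.12 in wild type (adjusted p = 2.7e-05). In hypoxia it was higher in knockouts by 0.51 ± 0.11 (adjusted p = 0.00459), a call lost without the 5 samples with organ markers (adjusted p = 0.0625). The difference between the hypoxia effects was 0.27 ± 0.16 (adjusted p = 0.478). Endothelial markers did not move one way beside it: in the same comparison of genotypes in hypoxia, Pecam1 rose by 0.41 ± 0.08 (1460 ± 49.3 CPM in knockouts against 1099 ± 106 CPM in wild type, SD, n = 4 each; adjusted p = 0.00146) and Cdh5 fell by 0.25 ± 0.09 on the log2 scale (789 ± 93.2 against 938 ± 50.5 CPM; adjusted p = 0.0438). Their part in the difference of Nos3 was not tested.

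Nos2, the inducible synthase, went the other way between genotypes. It was at 5.46, 5.93, 4.41 and 5.01 CPM in knockout hypoxia lungs against 16.2, 10.6, 10.5 and 8.02 CPM in wild type hypoxia lungs. It fell in knockouts by 1.11 ± 0.31 on the log2 scale (adjusted p = 0.0184), a call lost without knockout hypoxia sample 3 or 4, wild type hypoxia sample 1 or the 5 samples with organ markers, with values of -1.25 to -0.83 over the 30 alternatives. In hypoxia against room air it differed by 0.66 ± 0.32 in knockouts (adjusted p = 0.178) and rose by 1.45 ± 0.32 in wild type (adjusted p = 0.011, lost with the compared groups alone or without the 5 samples with organ markers), and the difference between those effects was -0.78 ± 0.45 (adjusted p = 0.461). Nos1, the neuronal synthase, was too low to be tested, at 0 to 0.329 CPM in knockout hypoxia lungs and 0 to 1.32 CPM in wild type room air lungs.

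Of the remaining genes, Ddah1, which breaks down methylated arginines that inhibit nitric oxide synthases, fell in hypoxia against room air within knockouts (log2 difference -0.58 ± 0.10, adjusted p = 0.000376). It averaged 25.9 ± 2.20 CPM in knockout hypoxia lungs against 38.6 ± 0.995 CPM in knockout room air lungs (SD, n = 4 each). In wild type it differed by -0.20 ± 0.10 (adjusted p = 0.32), and the difference between the hypoxia effects was -0.38 ± 0.14 (adjusted p = 0.212). Knockout against wild type, Ddah1 differed by -0.08 ± 0.10 in hypoxia (adjusted p = 0.598) and by 0.30 ± 0.10 in room air (adjusted p = 0.0966, not called). Slc38a9, the lysosomal arginine sensor, was at 35.6 to 46.0 CPM in knockout hypoxia lungs against 26.0 to 33.4 CPM in wild type hypoxia lungs and rose by 0.44 ± 0.10 (adjusted p = 0.00472), a call lost without the 3 samples below 40% of reads in genes (adjusted p = 0.0505). It also rose in hypoxia against room air in knockouts, by 0.38 ± 0.10 (adjusted p = 0.0107), a call lost without the 5 samples with organ markers (adjusted p = 0.138).

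In the polyamine lists, Adc, a relative of Azin1 now named Azin2, fell in knockout hypoxia lungs to 15.6 to 19.8 CPM, against 21.1 to 27.3 CPM in wild type hypoxia lungs (-0.54 ± 0.13, adjusted p = 0.00648). Mat2a, which makes the S-adenosylmethionine used in polyamine synthesis, rose by 0.33 ± 0.11 in the same comparison (adjusted p = 0.0356) and fell in hypoxia in knockouts by 0.35 ± 0.11 (adjusted p = 0.0342). In wild type, hypoxia changed Mat2a by -0.38 ± 0.11 (adjusted p = 0.0542, not called). The difference between the hypoxia effects was 0.03 ± 0.16 (adjusted p = 0.961). The first Mat2a call was kept under 21 of 30 alternatives (0.16 to 0.42) and was lost with the GC trend removed (0.16, with or without the replicate block), without the 5 samples with organ markers (0.40, adjusted p = 0.0769), without the 3 samples below 40% of reads in genes (0.22, adjusted p = 0.156), and without knockout hypoxia sample 1, 3 or 4 or wild type hypoxia sample 1 or 2. The second was kept under 23 of 30 (-0.40 to -0.29) and was lost without the 5 samples with organ markers (-0.34, adjusted p = 0.277) and without knockout hypoxia sample 1, 2 or 4 or knockout room air sample 1, 2 or 3. In wild type, hypoxia lowered Slc3a2, the heavy chain of several amino acid carriers (-0.40 ± 0.09, adjusted p = 0.00731), a call lost without the 3 samples below 40% of reads in genes, and Atp13a2, the lysosomal polyamine exporter (-0.38 ± 0.10, adjusted p = 0.0384). In knockouts, hypoxia changed Slc3a2 by -0.11 ± 0.08 (adjusted p = 0.406) and Atp13a2 by -0.23 ± 0.10 (adjusted p = 0.154). The wild type Atp13a2 call was kept under 20 of 30 alternatives (-0.48 to -0.33). It was lost without the 5 samples with organ markers (-0.38, adjusted p = 0.113), with the compared groups only and with the B libraries only; the single samples without which it was lost were knockout hypoxia samples 2 and 3, wild type hypoxia samples 1 and 3 and wild type room air samples 1, 2 and 4.

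**Figure D5:**
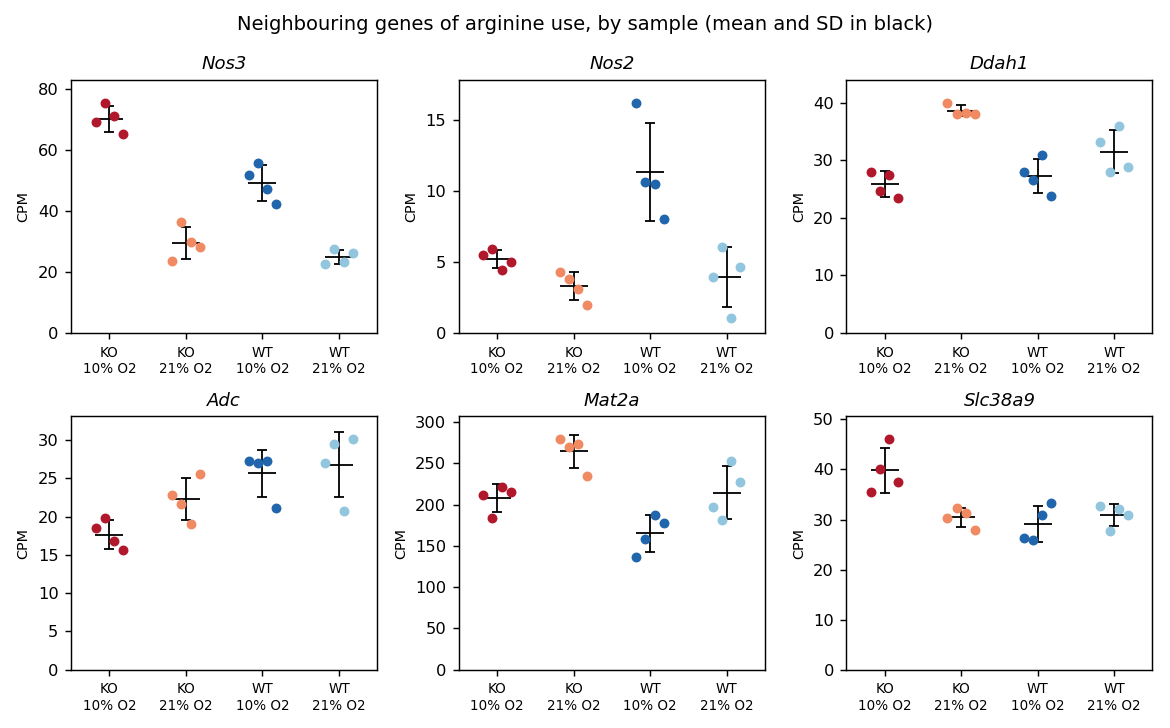
CPM (y axis, from 0) of 6 further genes of arginine use in each sample, grouped along the x axis; points are samples and black marks the mean and SD of 4. Nos3 is highest in knockout hypoxia lungs (65.3 to 75.5 CPM), while Nos2 is highest in wild type hypoxia lungs (8.02 to 16.2 CPM).

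Markers of lung and other cells also differed in hypoxia between genotypes, beside 12.1% of all genes lower and 11.0% higher in knockouts. Of 10 lung identity genes, the endothelial Pecam1 and Lyve1, a lymphatic and macrophage marker, rose, and the endothelial Cdh5 and the surfactant gene Sftpb fell. The B cell markers fell in knockouts for 7 of 7 genes, with sums of 24.9 to 44.3 CPM in knockouts against 54.7 to 101 CPM in wild type. T and natural killer cell markers fell for 5 of 8, with sums of 20.1 to 41.0 CPM against 47.0 to 49.8 CPM. Pancreatic markers rose for 3 of 3 tested, with sums of 4.25 to 1157 CPM against 2.11 to 3.20 CPM, and erythroid markers rose for 2 of 3 tested, with sums of 381 to 712 CPM against 130 to 367 CPM. Csf3r (1 of 6 genes of the neutrophil list) and Car4 (1 of 7 tested genes of the alveolar macrophage list) were lower. Cd8b1, 1 of 3 tested genes of the thymic list, was lower too, averaging 1.85 CPM in knockouts against 3.92 CPM in wild type. Cd8a of the T cell list fell likewise (1.79 against 4.66 CPM). The other tested thymic genes, Dntt and Rag1, had higher means in knockouts (0.373 against 0.124 and 1.04 against 0.0208 CPM) and were not called. Rora was higher (1 of 6 tested genes of type 2 innate lymphoid and T helper 2 cells). A single called gene does not show a change in the cells its list is named for. None of the B or T and natural killer cell markers was at 0 in any sample, whereas the pancreatic Cel, Cpa1 and Prss2 were at 0 in some. Their part in the differences of Arg2, Azin1 and Oat was not tested, except that the fits without the 5 samples with organ markers gave -1.02 for Arg2 and 0.50 for Oat, both called, and 0.60 for Azin1, not called.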

How the data were processed

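Libraries were made from total RNA depleted of ribosomal RNA with a directional kit, per the labels' protocols. The submitters' processing notes name Trim Galore, TopHat2, HTSeq and the build mm10; no version, annotation or strand setting is given in these sources. The authors deposited raw, unnormalized read counts for 24062 gene symbols in each of 20 libraries. A further 5 lines that name no gene were left out of library sizes and tests. The A and B libraries of a sample number were summed, because they differed less from each other (chi-square per degree of freedom 1.53 to 2.07) than from the nearest other number (3.89 to 10.7), giving 16 samples.

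One edgeR 4.0.16 fit (R 4.3.3) over the 4 groups used TMM scaling, filterByExpr (minimum count 10, minimum total 15), robust quasi-likelihood dispersions and two-sided tests. P-values were adjusted by the Benjamini-Hochberg method over 15766 genes and called under 0.05. The biological coefficient of variation was 15.8%. CPM values are scaled by TMM. The script was tested on simulated data. Alternatives used DESeq2 1.42.0, limma 3.58.1 (voom), other scalings, no filter, other samples, a GC trend, the share of reads in genes, a replicate block and each sample left out; the omission of the 3 samples below 40% was added after seeing the data. Coordinates, exon lengths and GC content come from GENCODE vM21 (GRCm38), which matched 98.4% of the symbols. Adc was matched to Azin2 as an older symbol.

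The 10 genes and all lists were chosen with earlier results of these data known. All 10 were named in every case; of the other list genes, the 3 called genes with the smallest p per list and comparison were named, with Nos1, Nos2 and Nos3 in any case. Likeness was Pearson's r of log2 CPM with a prior count of 2, among genes with a mean of at least 5 CPM. Permutation p-values used 100000 resamples. Floors cover counting error only, whereas the SEs of fold changes also hold the spread between samples.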

Additional observations from a re-analysis of the deposited data

Results flagged for a closer look

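Single samples stood apart from the other 3 of their group in 3 of 36 groups of values examined, by Dixon's comparison of the gap to the nearest sample with the group's range; chance alone gives about 1 in 20. Arg1 was lowest in wild type room air sample 3, at 1.08 CPM. Asl was lowest in the same sample, at 17.3 CPM, and in knockout hypoxia sample 1, at 17.5 CPM. Wild type room air sample 3 had 9.53e+06 reads in genes, the fewest of the 16 samples, and 25.4% of its reads fell in genes.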

How the results depend on the processing

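For knockout against wild type in hypoxia, between 2 and 4 of the 9 genes were called under 30 alternatives, and Arg2 and Oat were called in all 30. Without 1 sample at a time, the count was 2 to 4 in that comparison, 0 to 1 for hypoxia in wild type, 0 to 0 for hypoxia in knockouts and 0 to 1 for the genotypes in room air. Hypoxia in wild type called 1 gene, Azin1, with the GC trend removed, with the replicate block and the GC trend removed, with the share of reads in genes as a covariate, and without the 3 samples below 40%. Hypoxia in knockouts called 2 genes (Azin1 and Oat) with the compared groups only, 1 (Oat) with the GC trend removed and 1 (Azin1) with the replicate block and the GC trend removed. In room air, knockout against wild type called 2 genes (Arg2 and Azin1) under DESeq2, under limma voom and with the share of reads as a covariate, 1 (Azin1) with the replicate block and 1 (Azin1) without the 3 samples below 40%. The cause of these shifts was not tested. The difference between the hypoxia effects called 0 under 29 alternatives; it could not be fitted on the compared groups only.

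Correlations of same-numbered samples between groups ranged from -0.327 to 0.46. Differently numbered samples were not compared in this way, so whether the replicate numbers pair the samples was not tested. With the replicate block, the room air difference of Azin1 was 0.67 (adjusted p = 0.0451), Slc7a1 was called in hypoxia at -0.39 (adjusted p = 0.0373), and the calls of Arg2, Oat and Azin1 in hypoxia were kept.

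Over all genes, the calls ranged from 0 to 2198 around 12 for the genotypes in room air (2198 without wild type room air sample 3), from 9 to 474 around 79 for the difference between effects, from 400 to 1135 around 785 for hypoxia in wild type, from 1035 to 3424 around 2685 for hypoxia in knockouts and from 2026 to 4337 around 3633 for the genotypes in hypoxia. Depth limits Arg1, with 10 to 136 counts. Ass1 was under the floor throughout, and how far shared sequence set its level was not tested.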
